A study of Apis mellifera with 10 samples.

Results

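Glurb, mGlutR1, Eaat-2, pHCl, nAChRa3 and AChE-2 are 6 genes of glutamate, acetylcholine and chloride channel signalling in the honey bee, Apis mellifera. They were taken by symbol from the RefSeq gene table of the Amel_HAv3.1 assembly and matched to count rows on chromosome, start and end, which gave 6 of 12332 bee genes. RNA was sequenced from whole antennae of laboratory-reared adult bees within a day of adult emergence. The orco_KO group (5 libraries, replicates 3, 5, 9, 11 and 12) came from embryos injected with a CRISPR ribonucleoprotein against orco, the coreceptor of the odorant receptors, and the control group (5 libraries, replicates 3, 4, 5, 6 and 7) from embryos injected with buffer alone. The labels give neither the strain, nor the number of bees in a library, nor whether all antennal cells carry an edit. The p-values therefore measure the spread between these libraries, which may be technical.

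Insect olfactory sensory neurons release acetylcholine onto neurons of the brain. Nicotinic receptors are ion channels that open when they bind acetylcholine, and acetylcholinesterase ends the signal by splitting the transmitter. Glutamate acts on receptors that are ion channels, on metabotropic receptors that signal through G proteins and, in insects, also on glutamate-gated chloride channels, and transporters of the excitatory amino acid family carry it back into cells. An antenna holds sensory neurons with their support cells and glia, but not the brain neurons on which these axons end.

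Reads assigned to bee genes ranged from 8577416 to 18308425 in orco_KO libraries and from 9497211 to 23453690 in control libraries. The target of the injection, Or2 (orco), averaged 22.9 ± 9.33 CPM in orco_KO and 382 ± 82.6 CPM in control antennae (SD, n = 5 each), where CPM is a gene's share of the library's reads after scaling (counts per 1e+06 reads). On principal component 2 the controls numbered 6 and 7 (21.6 and 26.7) lay away from the other 3. Those were themselves spread out (-58, -10.9 and -22.4 for control replicates 3, 4 and 5), with control replicate 3 the most extreme library. Markers of the antennal support cells (24 odorant binding and chemosensory proteins) summed to between 15630 and 25880 CPM in orco_KO and between 8835 and 36010 CPM in controls. None of 6 glial marker symbols other than Eaat-2 was matched. The 4 muscle markers summed to between 2177 and 5676 CPM in orco_KO and between 1777 and 3413 CPM in controls. Of these 4 markers, TpnT was called higher (log2 fold change 1.17, edgeR adjusted p = 0.0345), a call lost in 7 of 16 other fits, among them that without control replicates 6 and 7 (0.90, edgeR adjusted p = 0.121) and each that left out control replicate 3, 6 or 7 or orco_KO replicate 3, 5 or 12. Argk was called lower (-0.97, edgeR adjusted p = 0.00365) with groups that did not overlap, and the other 2 did not pass. The part of muscle content in the results was not tested.

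All 6 genes passed the filter on low counts, and they lie on 6 different linkage groups. Glurb, pHCl, nAChRa3, AChE-2 and Eaat-2 were lower and mGlutR1 was higher in orco_KO (quasi-likelihood test of edgeR with Benjamini-Hochberg adjustment over 9222 genes, threshold 0.05). For each of the 6, no library of one group reached the range of the other. Over all tested genes 12.5% passed the test, 7.98% as lower and 4.57% as higher. Groups without overlap were found in 11.2% of tested genes, lower in 7.45% and higher in 3.76%. The 6 genes had been picked with earlier results of these libraries known, so their count is a description. In antennae as a whole, fewer cells that express a gene and less RNA per cell cannot be told apart.

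**Figure D1:**
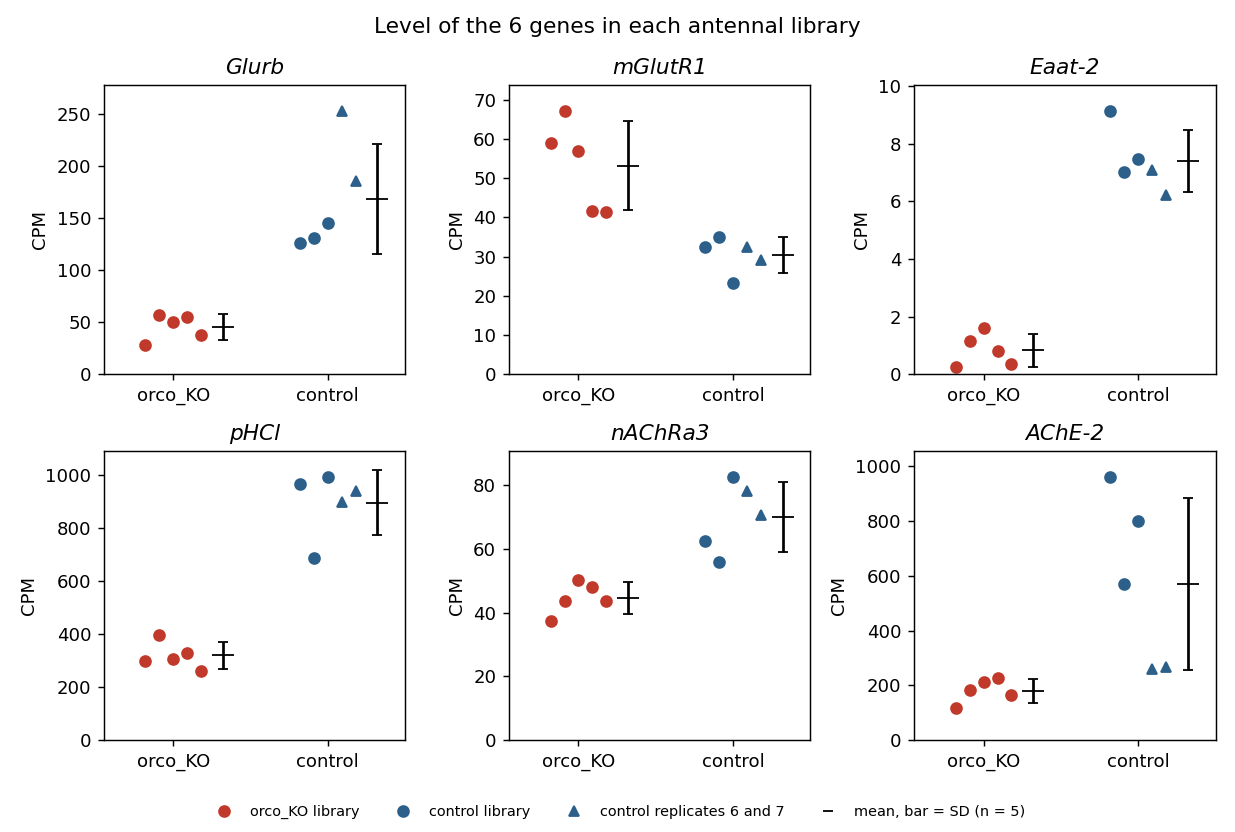
CPM of each gene in each library, with orco_KO at the left and control at the right of every panel. Points are libraries, triangles are control replicates 6 and 7, and bars are the mean and SD (n = 5). The orco_KO points lie below all control points in 5 panels and above them in the mGlutR1 panel, and the 2 triangles of AChE-2 sit at 262 and 265 CPM while the other controls lie at 569 to 961 CPM.

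Glurb carries the name of a glutamate receptor, and the gene table does not say of which class. It spans 256.9 kb on the reverse strand of linkage group 13, chr13:7387213-7644067 in Amel_HAv3.1. Glurb was at 27.8, 56.8, 49.7, 55.2 and 37.9 CPM in orco_KO replicates 3, 5, 9, 11 and 12, against 126, 131, 146, 253 and 186 CPM in control replicates 3, 4, 5, 6 and 7. Even the highest orco_KO library was far below the lowest control, and control replicates 6 and 7 were the highest of all. The log2 fold change was -1.89 (SE 0.241, edgeR adjusted p = 1.2e-04), a level 3.71-fold lower in orco_KO. Without control replicates 6 and 7 it was -1.56 (edgeR adjusted p = 3.7e-04).

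The metabotropic glutamate receptor gene mGlutR1 (synonyms Glura and mGlutR), on the reverse strand at chr11:14015127-14045583, was the one gene of the set that rose. It was at 59.0, 67.1, 56.9, 41.8 and 41.5 CPM in orco_KO replicates 3, 5, 9, 11 and 12, against 32.4, 34.98, 23.2, 32.5 and 29.1 CPM in control replicates 3, 4, 5, 6 and 7. Replicates 11 and 12 came nearest to the controls. Its log2 fold change was 0.81 (SE 0.176, edgeR adjusted p = 0.00751), a 1.75-fold higher level, and control replicates 6 and 7 lay among the other controls.

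The glutamate receptors thus went in opposite directions within the same libraries. The ratio of Glurb to mGlutR1 counts was 0.471, 0.846, 0.874, 1.32 and 0.912 in orco_KO replicates 3, 5, 9, 11 and 12, against 3.90, 3.74, 6.28, 7.80 and 6.41 in control replicates 3, 4, 5, 6 and 7. The groups were separate in this ratio, with the orco_KO libraries at the low end. The log2 ratio changed by -2.68 in orco_KO (SE 0.318). An exact permutation test over all splits into 5 and 5 libraries gave a two-sided p = 0.00794 (adjusted p = 0.0119 over 15 pairs). Since Glurb was lower and mGlutR1 higher in every orco_KO library than in any control, this p was fixed by the single-gene levels.

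Eaat-2 codes for an excitatory amino acid transporter, a membrane protein that takes up glutamate or related amino acids. It is the shortest gene of the set, with 3384 bases on the reverse strand at chr2:12135342-12138725, and it had the largest fold change. Eaat-2 was at 0.232, 1.15, 1.60, 0.817 and 0.350 CPM in orco_KO replicates 3, 5, 9, 11 and 12, against 9.14, 7.02, 7.49, 7.11 and 6.24 CPM in control replicates 3, 4, 5, 6 and 7. These levels rest on 54 reads in all orco_KO libraries together and on 660 reads in the controls. The controls stayed within a narrow band. Among orco_KO libraries, replicates 3 and 12 were well below replicate 9, but they hold only 2 and 5 reads of Eaat-2, against 31 in replicate 9. The log2 fold change was -3.09 (SE 0.398, edgeR adjusted p = 1.3e-04), an 8.53-fold lower level. The end of Eaat-2 shares 447 bases with LOC551477 on the opposite strand, which was at 5.65 ± 1.31 CPM in orco_KO and 9.69 ± 2.48 CPM in controls (SD, n = 5 each; log2 fold change -0.77, edgeR adjusted p = 0.0417). The call of LOC551477 was lost in 11 of 16 other fits.

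The gene pHCl codes for a pH-sensitive chloride channel and has the synonym avr-14, which in Caenorhabditis elegans names a subunit of a glutamate-gated chloride channel. On the forward strand at chr15:7474679-7550203, it was at 299, 397, 306, 330 and 261 CPM in orco_KO replicates 3, 5, 9, 11 and 12, against 965, 686, 991, 895 and 937 CPM in control replicates 3, 4, 5, 6 and 7. Its log2 fold change was -1.49 (SE 0.166, edgeR adjusted p = 4.0e-05), a 2.81-fold lower level, and control replicates 6 and 7 lay among the others. The long noncoding RNA gene LOC107965616 lies inside pHCl on the same strand over 1.81% of its span. Reads there are left out for both genes, so the pHCl counts are minimum values.

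The nicotinic acetylcholine receptor subunit gene nAChRa3 had the smallest change of the set. On the forward strand at chr5:12117944-12196914, it was at 37.3, 43.7, 50.2, 48.0 and 43.6 CPM in orco_KO replicates 3, 5, 9, 11 and 12, against 62.5, 55.8, 82.6, 78.1 and 70.7 CPM in control replicates 3, 4, 5, 6 and 7. Nearest to each other were orco_KO replicate 9 and control replicate 4, at a gap smaller than the range within either group. The log2 fold change was -0.65 (SE 0.150, edgeR adjusted p = 0.0107), a 1.57-fold lower level, and the adjusted p without control replicates 6 and 7 was 0.0478.

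AChE-2, an acetylcholinesterase gene with 134.9 kb on the forward strand at chr8:7426943-7561836, varied most among controls relative to its mean. It was at 116, 184, 211, 225 and 165 CPM in orco_KO replicates 3, 5, 9, 11 and 12, against 961, 569, 800, 262 and 265 CPM in control replicates 3, 4, 5, 6 and 7. Control replicates 6 and 7 were just above the highest orco_KO library. The log2 fold change was -1.66 (SE 0.347, edgeR adjusted p = 0.00563), a 3.17-fold lower level. Without control replicates 6 and 7 it was -2.10 (edgeR adjusted p = 4.3e-05).

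Levels of different genes were set side by side only per kb of gene span, which includes introns. In orco_KO antennae the order of the mean levels was pHCl (4.22 CPM per kb), mGlutR1 (1.75), AChE-2 (1.34), nAChRa3 (0.564), Eaat-2 (0.245) and Glurb (0.177). In control antennae it was pHCl (11.9 CPM per kb), AChE-2 (4.24), Eaat-2 (2.19), mGlutR1 (0.999), nAChRa3 (0.885) and Glurb (0.656). The library ranges of neighbours in this order overlapped in orco_KO between mGlutR1 and AChE-2, between Eaat-2 and Glurb and, barely, between nAChRa3 (lowest 0.4722) and Eaat-2 (highest 0.4725). In controls they overlapped between AChE-2 and Eaat-2, between mGlutR1 and nAChRa3 and between nAChRa3 and Glurb. In both groups pHCl was above all others in every library and Glurb had the lowest mean.

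Whether the genes changed by different amounts was tested on the log2 ratio of each pair within a library, in 15 pairs. The ratio differed between the groups in 11 pairs (exact permutation test, adjusted p below 0.05; the smallest p the design allows is 0.00794). All 5 pairs with mGlutR1 were among them, as was each pair with Eaat-2. For the pairs with mGlutR1 the outcome was fixed by the single-gene levels. In every orco_KO library mGlutR1 was higher, and each other gene lower, than in any control. The ratio of Eaat-2 to nAChRa3 changed by -2.55 on the log2 scale in orco_KO (SE 0.394, exact permutation adjusted p = 0.0119), and that of Glurb to nAChRa3 changed by -1.24 (SE 0.207, exact permutation adjusted p = 0.0119). The call for Glurb and Eaat-2 (1.31, SE 0.366, exact permutation adjusted p = 0.0325) was lost in 6 of 10 tests that each left out 1 library (adjusted p up to 0.0541). At the low counts of Eaat-2 the size of these changes depends on the prior count of 2 added before taking logs. With a prior count of 0.5, Eaat-2 to nAChRa3 changed by -2.76 and Glurb to Eaat-2 by 1.51.

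No difference was found in the 4 remaining pairs. The log2 ratio of Glurb to pHCl differed by -0.39 (SE 0.245, exact permutation adjusted p = 0.174) and that of pHCl to AChE-2 by 0.01 (SE 0.430, exact permutation adjusted p = 1). Among these 4 pairs, those with AChE-2 rested on control replicates 6 and 7. There the ratio of AChE-2 to pHCl counts was 0.292 and 0.283, against 0.996, 0.830 and 0.807 in control replicates 3, 4 and 5. Glurb to AChE-2 was at -0.38 (SE 0.569, exact permutation adjusted p = 0.544) with all libraries and at 0.51 (exact permutation adjusted p = 0.0412) without these 2 controls. pHCl to AChE-2 was at 0.65 (exact permutation adjusted p = 0.0574) without them. nAChRa3 to AChE-2 was at 0.86 (SE 0.443, exact permutation adjusted p = 0.174) with all libraries, at 1.54 without these 2 controls (exact permutation adjusted p = 0.0268) and at 1.13 without control replicate 6 alone (adjusted p = 0.0496).

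**Figure D2:**
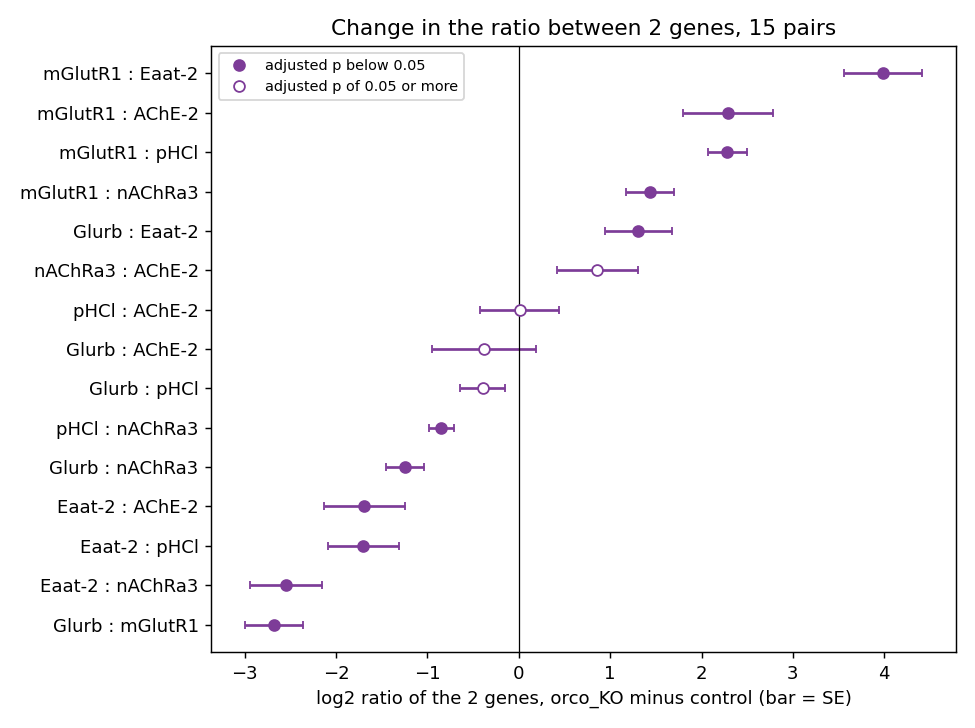
Difference in the log2 ratio of 2 genes, orco_KO minus control, for the 15 pairs, with bars for the SE (n = 5 libraries each). Filled points have an adjusted p below 0.05; they reach from -2.68 for Glurb to mGlutR1 up to 3.98 for mGlutR1 to Eaat-2, and the 4 open points are Glurb or nAChRa3 to AChE-2, pHCl to AChE-2 and Glurb to pHCl.

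For the wider list of transmitter genes 65 symbols were looked up, some of them alternative names of the same gene, and 20 genes were matched. Vglut, ChAT, VAChT, AChE-1, Rdl and Gad were among the symbols without a match, so the list leaves such genes out. Besides the 6, it held 14 further genes. Of these, 8 passed the filter on low counts and 0 passed the test by edgeR. Over all tested genes 12.5% passed, and with so few genes a count of 0 tells little about the rest of the list. At an unadjusted edgeR p below 0.05, 2 of the 8 were lower and 2 higher. DESeq2 called 1 higher (nAChRa1) and limma-voom called 1 lower (nAChRa8). The median log2 fold change of these 8 genes was 0.15, against -0.05 over all tested genes. The other 6 (Nmdar1, nAChRa2, nAChRa9, nAChRb2, Hiscl1 and LCCH3) were all below 1 CPM in each library.

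Among the nicotinic subunits, 7 of 10 were tested and nAChRa3 was the one called. A count of 1 in 7 is near the 12.5% called over all tested genes, and nAChRa3 had been picked with earlier results known. nAChRa1 was at 76.6 ± 10.3 CPM in orco_KO and 53.2 ± 15.3 CPM in controls (SD, n = 5 each; log2 fold change 0.53, edgeR adjusted p = 0.0919), and without control replicate 3 it was called higher (edgeR adjusted p = 0.0149). nAChRa6 was at 114 ± 30.6 CPM in orco_KO and 82.6 ± 21.9 CPM in controls, with a log2 fold change of 0.47 (edgeR adjusted p = 0.192). nAChRa7 was at 163 ± 31.3 CPM in orco_KO and at 150 ± 36.3 CPM in controls (SD, n = 5 each). nAChRa8 was at 1.09 ± 0.441 CPM in orco_KO and 2.17 ± 0.665 CPM in controls, a log2 fold change of -1.06 (edgeR adjusted p = 0.0901). Only 57 orco_KO and 221 control reads stand behind nAChRa8.

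The change of nAChRa3 was then set against that of each tested relative. The ratio of nAChRa3 to nAChRa7 counts was 0.251, 0.334, 0.275, 0.231 and 0.296 in orco_KO replicates 3, 5, 9, 11 and 12, against 0.509, 0.525, 0.513, 0.393 and 0.439 in control replicates 3, 4, 5, 6 and 7. The groups did not overlap in this ratio. On the log2 scale it changed by -0.78 in orco_KO (SE 0.123), and the ratios to nAChRa1, nAChRa4 and nAChRa6 changed by -1.20, -0.80 and -1.11 (exact permutation test, adjusted p = 0.0106 over 8 pairs for each). The ratio to nAChRb1 differed by -0.93 (SE 0.378, exact permutation adjusted p = 0.0363), a call lost in 7 of 10 tests that each left out 1 library. The ratio to nAChRa8 was not found to differ (0.30, SE 0.301, exact permutation adjusted p = 0.341).

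**Figure D3:**
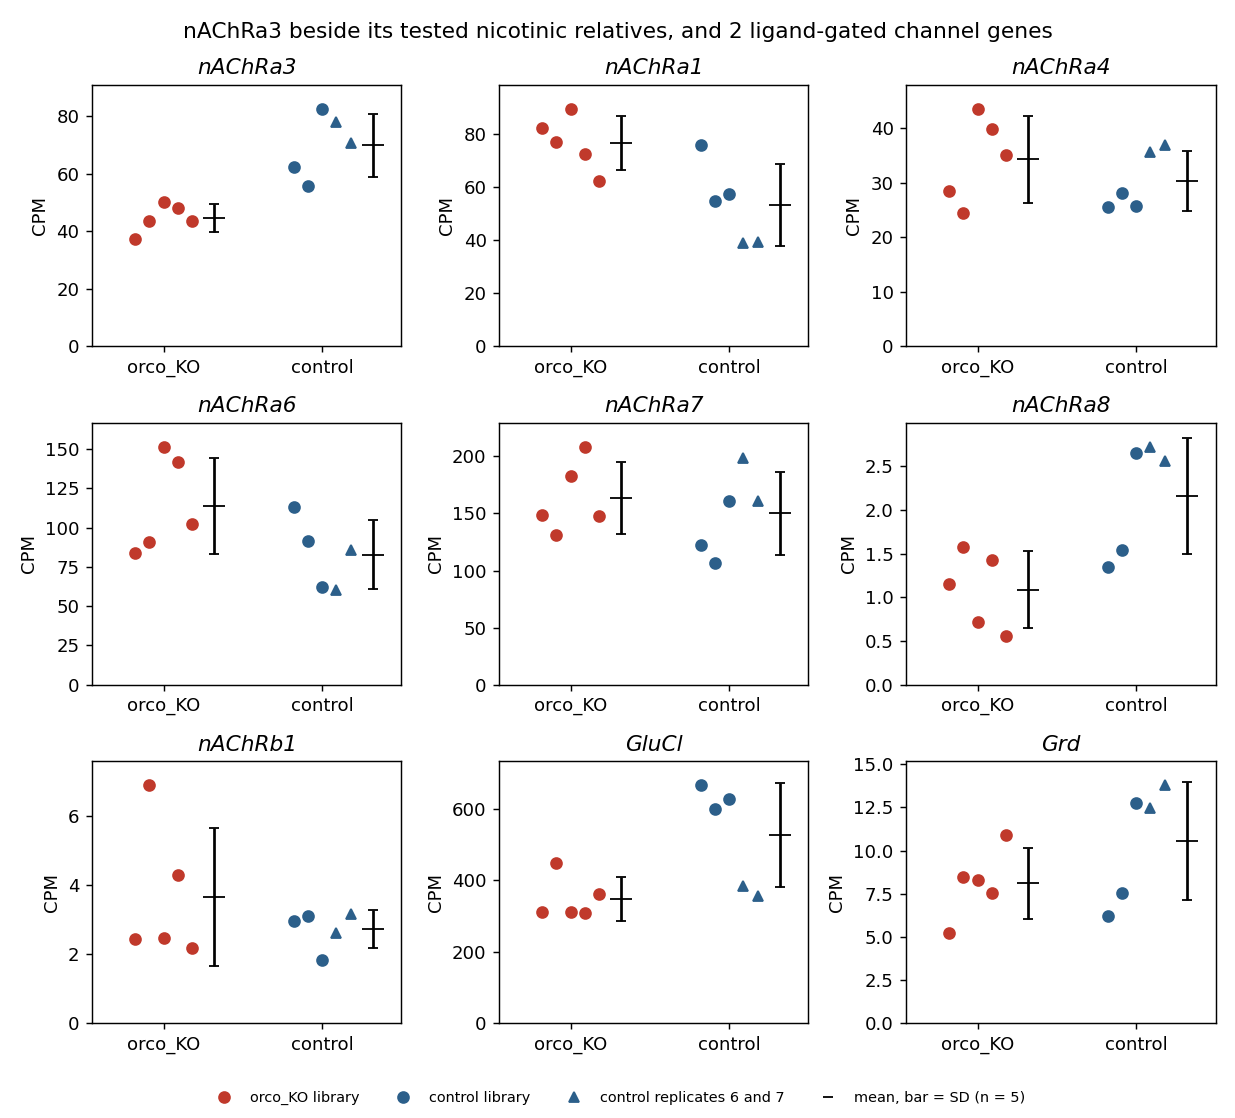
CPM in each library of nAChRa3, of its 6 tested nicotinic relatives and of the channel genes GluCl and Grd, with orco_KO at the left and control at the right. Points are libraries, triangles are control replicates 6 and 7, and bars are the mean and SD (n = 5). The groups are separate in the nAChRa3 panel and overlap in the other 8.

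Among ligand-gated chloride channel relatives of pHCl, GluCl and Grd could be compared. GluCl, coding for a glutamate-gated chloride channel, was at 311, 449, 310, 308 and 361 CPM in orco_KO replicates 3, 5, 9, 11 and 12, against 666, 599, 626, 384 and 354 CPM in control replicates 3, 4, 5, 6 and 7. Control replicates 6 and 7 lay within the orco_KO range, and the other 3 controls lay above it. The log2 fold change of GluCl was -0.60 (SE 0.205, edgeR adjusted p = 0.0743), and it was -0.86 without control replicates 6 and 7 (edgeR adjusted p = 0.00403). GluCl was also called without control replicate 6 alone (-0.69, edgeR adjusted p = 0.0497) or without control replicate 7 alone (-0.71, edgeR adjusted p = 0.0294).

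Grd, a relative of the GABA receptor subunits, was at 8.09 ± 2.05 CPM in orco_KO and 10.5 ± 3.43 CPM in controls (SD, n = 5 each; edgeR adjusted p = 0.378). The ratio of pHCl to GluCl changed by -0.93 in orco_KO on the log2 scale (SE 0.243) and that of pHCl to Grd by -1.15 (SE 0.300; exact permutation adjusted p = 0.0106 for both). Neither relative was called with all libraries. The ratio of pHCl to GluCl counts was 2.33 and 2.64 in control replicates 6 and 7, against 1.45, 1.14 and 1.58 in control replicates 3, 4 and 5. Its change ranged from -1.08 to -0.59 over the alternatives. pHCl had been picked with earlier results of these libraries known, so its larger drop beside these relatives is a description.

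The 6 genes were also set beside markers of neurons. Of 9 neuron marker symbols 7 were matched, and the list was drawn up with earlier results of these libraries known. Of these 7 markers 6 were lower in orco_KO by edgeR, against 7.98% of all tested genes and 15.6% of those spanning at least 50 kb. Syx1A did not pass (edgeR adjusted p = 0.926). The call of Syt1 was lost without orco_KO replicate 12 (edgeR adjusted p = 0.0526). The median log2 fold change of the 7 was -1.39. Their summed level was 4465, 6429, 4596, 4704 and 4340 CPM in orco_KO replicates 3, 5, 9, 11 and 12, against 18380, 11260, 15060, 7962 and 7640 CPM in control replicates 3, 4, 5, 6 and 7. Within this sum brp averaged 1270 CPM in control replicates 6 and 7, against 5406 CPM in control replicates 3 to 5. Cac, Para, Syt1, Camkii and Syx1A were also lower in control replicates 6 and 7 than in any other control. Nrx-1, at 872 and 957 CPM there, lay within the range of control replicates 3 to 5. AChE-2 and GluCl shared with the sum the low values of control replicates 6 and 7, while Glurb was highest in those libraries. For pHCl, nAChRa3 and mGlutR1 both lay within the range of the other controls, and for Eaat-2 replicate 6 did. The part of neuron content in these results was not tested.

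**Figure D4:**
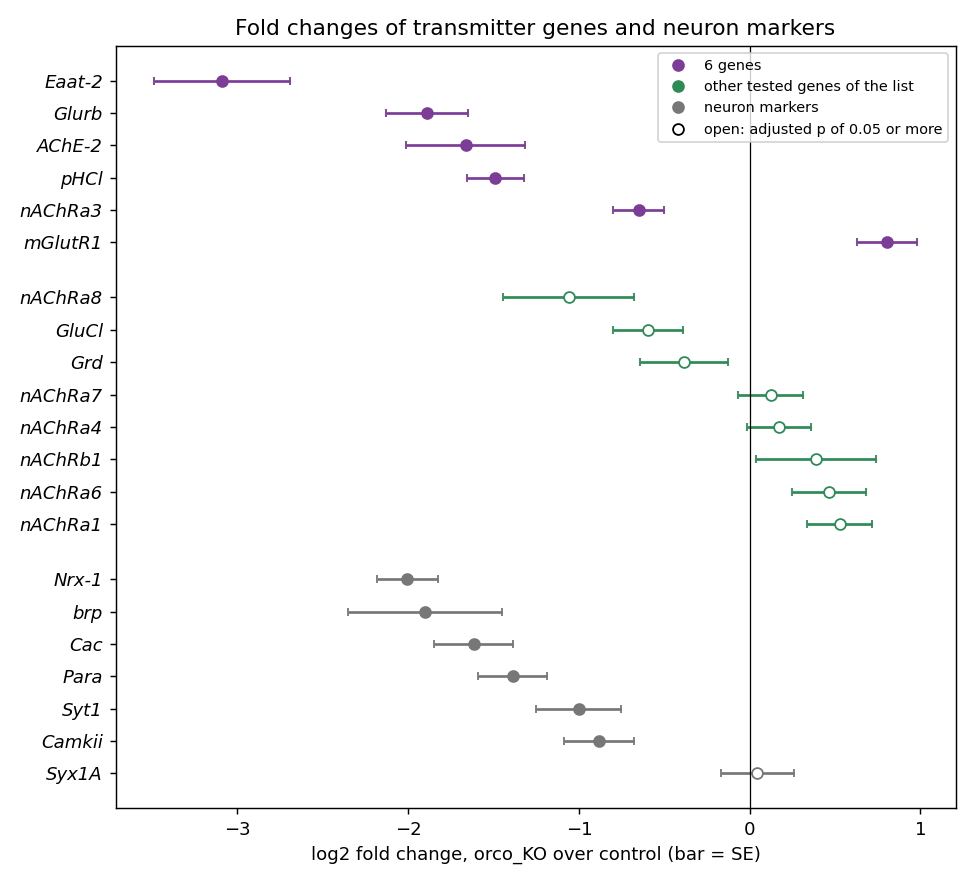
Log2 fold change, orco_KO over control, with SE bars, of the 6 genes, of the 8 other tested genes of the wider list and of 7 neuron markers. Filled points have an adjusted p below 0.05; Eaat-2 lies at -3.09 and mGlutR1 at 0.81, and the 8 other list genes, all open, lie between -1.06 and 0.53.

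Likeness of pattern was measured as the root mean square distance of log2 CPM over the 10 libraries, each gene centred on its own mean, and the 3 nearest genes that carry a name and not an LOC symbol were taken for each gene. Those nearest to Eaat-2 were Or9, Or10 and Or2 (distances 0.290, 0.539 and 0.553, against a median of 1.74 over all tested genes), which are odorant receptor genes and the coreceptor. Or9 was the nearest of all tested genes, LOC genes included, and averaged 0.244 CPM in orco_KO and 2.89 CPM in controls. Or10 averaged 0.031 CPM in orco_KO and 1.31 CPM in controls. At such low counts the log2 values, and so the distances, depend in part on the prior count of 2 added before taking logs. For Glurb the nearest were Or30, Or41 and Or58 (0.351, 0.374 and 0.375, median 1.07), 3 odorant receptor genes on linkage group 2.

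The nearest genes of pHCl were SIFR, Para and Fstl5 (0.202, 0.220 and 0.241, median 0.861), where SIFR is a neuropeptide receptor and Para the voltage-gated sodium channel. Those of AChE-2 were Cac, the presynaptic calcium channel, Pkc and Para (0.387, 0.399 and 0.434, median 1.05). The nearest to mGlutR1 were Wat, Emc and Reck (0.200, 0.243 and 0.261, median 0.630), and those to nAChRa3 were Rep, egh and Brd7 (0.198, 0.231 and 0.235, median 0.549). Among all tested genes, LOC genes included, the nearest named gene ranked 24 for Glurb, 13 for mGlutR1, 12 for pHCl, 56 for nAChRa3 and 42 for AChE-2. The group difference is part of each distance, and the genes share libraries and depth.

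Of the 6 genes Glurb, AChE-2, nAChRa3 and pHCl span more than 50 kb, and intronic reads count toward them. Of 790 tested genes that span at least 50 kb, 15.6% were lower and 15.3% were higher in orco_KO. Their median log2 fold change was 0.19. The relatives nAChRa4, nAChRa6 and nAChRa7, each longer than 200 kb, had log2 fold changes of 0.17, 0.47 and 0.12 and did not pass the test.

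The span of Glurb contains genes on the opposite strand, which were counted apart from it because the counting used strand. These were named after their values had been seen. The noncoding RNA gene LOC107965433, 63.8 to 65.6 kb from the start of Glurb, was at 3.71, 3.45, 9.59, 6.43 and 3.64 CPM in orco_KO replicates 3, 5, 9, 11 and 12, against 35.6, 23.8, 39.5, 40.9 and 33.9 CPM in control replicates 3, 4, 5, 6 and 7. All orco_KO libraries lay far below all controls. It fell by 2.66 on the log2 scale (SE 0.290, edgeR adjusted p = 3.3e-05), as did LOC107965434, a further noncoding RNA gene 42.9 to 45.2 kb from the start (1.68 ± 1.19 CPM in orco_KO and 11.4 ± 2.48 CPM in controls; SD, n = 5 each; SE 0.371, edgeR adjusted p = 2.5e-04).

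The protein-coding gene LOC411843, which covers 70.1% of the Glurb span on the opposite strand, did not pass the test. It was at 56.6 ± 1.57 CPM in orco_KO and 64.6 ± 13.6 CPM in controls (SD, n = 5 each; log2 fold change -0.19, edgeR adjusted p = 0.491). Per kb, LOC107965433 averaged 2.88 CPM in orco_KO and 18.7 CPM in controls, above Glurb with 0.177 CPM per kb in orco_KO and 0.656 CPM per kb in controls. LOC113218577 is listed at 0 in every library and lies inside LOC411843 on its strand, so that reads there are left out.

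**Figure D5:**
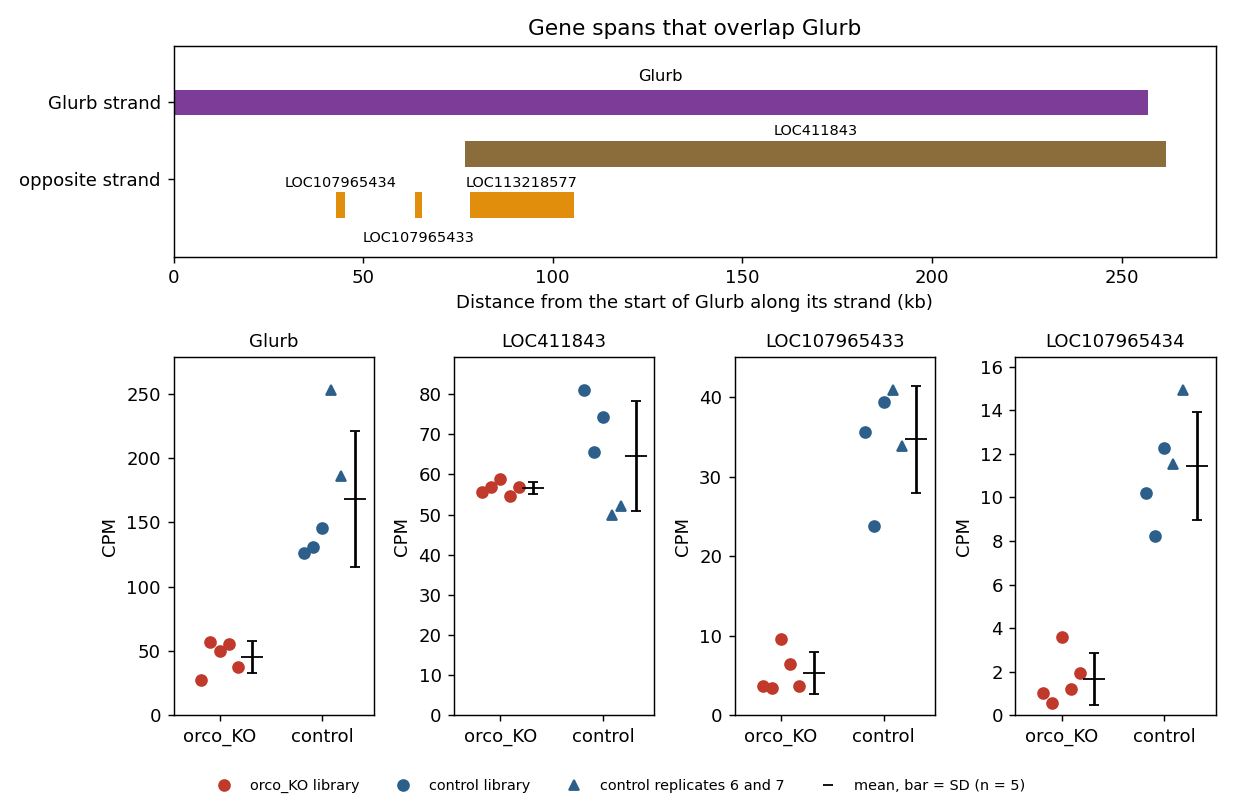
Spans of Glurb and of the genes that overlap it, by distance in kb from the start of Glurb along its strand (top), and CPM in each library of Glurb and 3 overlapping genes (bottom), with orco_KO at the left and control at the right. Points are libraries, triangles are control replicates 6 and 7, and bars are the mean and SD (n = 5). Glurb, LOC107965433 and LOC107965434 are lower in all orco_KO libraries, while the groups overlap for LOC411843.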

How the data were processed

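Antennal RNA of 5 orco_KO and 5 control libraries was used. The deposited values are raw counts of reads for each gene, not normalized. STAR 2.7.3a is named as aligner in the submitters' processing notes. Per the file headers, featureCounts (Subread 2.0.0) counted by strand and over the whole gene span, introns included. No option for multiply mapped or overlapping reads was set, so such reads are left out. Of 12337 features, 5 virus genomes were left out, and 12325 of 12332 bee genes were matched to RefSeq symbols by coordinates. The main test was that of edgeR 4.0.16 under R 4.3.3 (filterByExpr, TMM, quasi-likelihood test without covariates, adjustment over 9222 genes). DESeq2 1.42.0, limma 3.58.1 (voom), other scaling, no filter, a replicate block and fits without single libraries were the alternatives. SEs are log2 fold changes over the root of their F statistic. Ratios of 2 genes used log2 CPM with a prior count of 2 and an exact permutation test over all splits. The fit was tested on simulated counts. The 6 genes, the lists and the rule for named genes (the 6, the wider list by symbol, the 3 most alike genes with a symbol, Or2 and overlapping genes) were chosen with earlier results of these data known. Figures were drawn with matplotlib 3.10.9.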

Additional observations from a re-analysis of the deposited data

How the results depend on the processing

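All 6 genes kept their direction and their call in each of 16 alternatives. The log2 fold change ranged from -1.97 to -1.56 for Glurb, from 0.72 to 1.20 for mGlutR1, from -3.70 to -2.85 for Eaat-2, from -1.57 to -1.40 for pHCl, from -0.83 to -0.58 for nAChRa3 and from -2.59 to -1.37 for AChE-2. The replicate numbers 3 and 5 occur in both groups, but the labels do not say that a number pairs libraries, and deviations from the group means correlated by 0.079 and 0.14 between them. With the number as a block, which only those 4 libraries inform, AChE-2 was at -2.59, mGlutR1 at 1.20 and nAChRa3 at -0.83 (edgeR adjusted p = 0.0449), 595 genes were lower and 375 higher, the calls of Camkii (edgeR adjusted p = 0.0503) and Argk (edgeR adjusted p = 0.0544) were lost, and the non-significant values of nAChRa7 (-0.013) and Syx1A (-0.31) changed sign. Over all genes 421 were higher, against 780 by DESeq2, 200 without control replicates 6 and 7, and 250 to 684 when 1 library was left out. On the wider list 1 gene was higher, against 2 by DESeq2 and 1 to 2 when 1 library was left out. Of its 8 tested genes outside the 6, none was called, against 1 higher by DESeq2, 1 lower by limma-voom, 1 lower without control replicates 6 and 7, and 0 to 1 in each direction when 1 library was left out. Among pairs without a call, Glurb to AChE-2 ranged from -0.71 to 0.007 and pHCl to AChE-2 from -0.20 to 0.26 when 1 library was left out, and without control replicates 6 and 7 they were 0.51 and 0.65. Syx1A was at -0.23 without both, and between -0.073 and 0.21 when 1 library was left out. The cause of these shifts was not tested. The depth limits Eaat-2 and nAChRa8 most, with 54 and 57 reads in all orco_KO libraries together.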
